A study of Homo sapiens with 6 samples.

Results

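The human table held 240 protein-coding genes of chromosome 19 whose symbol is ZNF followed by a number, among 62438 genes in all. They were chosen by gene type, chromosome and symbol in GENCODE, with no use of any measured value. ZNF genes carried by other chromosomes, of which there were 236, and the 1234 other protein-coding genes of chromosome 19 served as background. RNA-seq libraries came from cells labelled MDA-MB-453, a breast cancer line, which had been given N6AMT1-directed siRNA (si-N6AMT1, n = 3) or scrambled siRNA (si-CN, n = 3) at 10 nM and kept for 48 h. All 6 cultures received siRNA and transfection reagent, and no untransfected library was compared. The sources used here do not give how many siRNA sequences target N6AMT1. The comparison asked which mRNAs differ when N6AMT1 is reduced, a methyltransferase that the study examined as a writer of N6-methyladenine (6mA) in DNA.

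Most ZNF genes of chromosome 19 encode proteins with a row of C2H2 zinc fingers, each of which contacts a few bases of DNA, and many carry a KRAB box at the other end. The KRAB box binds the corepressor TRIM28 (also KAP1), which brings the H3K9 methyltransferase SETDB1, HP1 proteins and the NuRD complex to the bound site. These genes arose by repeated local duplication and lie in tandem clusters. Many of the proteins bind transposable elements, and a few act at imprinted genes.

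Library totals ran from 19739247 to 21289740 estimated counts. Levels are given in CPM, the count scaled to edgeR's normalized library size. N6AMT1 was measured at 3.08, 3.53 and 2.93 CPM in the si-N6AMT1 libraries and at 6.93, 6.86 and 6.65 CPM in the si-CN libraries. The groups did not overlap, and the log2 fold change of N6AMT1 was -1.10 (SE 0.119, FDR = 3.65e-07 by edgeR's quasi-likelihood test). Of the luminal markers, KRT8, KRT18, EPCAM and ERBB2 were above 25 TPM, a level scaled to transcript length, in every library, FOXA1 lay between 4.81 and 5.70 TPM and GATA3 between 1.75 and 2.63 TPM. The basal or mesenchymal markers KRT5, KRT14 and VIM ran from 143 to 825 TPM. MDA-MB-453 is known as a luminal line, so these basal levels go against the label, and the cells are called by their label only. The leukocyte marker PTPRC had at most 3 counts, and the fibroblast marker COL1A1 lay between 16.5 and 17.8 TPM.

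Together, the 240 genes took up a small share of each library. They held 0.210, 0.211 and 0.209% of all counts in the si-N6AMT1 libraries and 0.215, 0.217 and 0.217% in the si-CN libraries. Every si-N6AMT1 library was below every si-CN library, with means of 0.210 ± 0.000929% and 0.216 ± 0.00138% (SD, n = 3 each). ZNF146 alone made up 6.997% of these counts in si-CN, and without it the shares were 0.194 ± 0.000996% and 0.201 ± 0.00148% (SD, n = 3 each). A lower share was not particular to chromosome 19. ZNF genes of other chromosomes held 0.564, 0.560 and 0.558% of counts in si-N6AMT1 and 0.565, 0.568 and 0.571% in si-CN, also without overlap. From these totals, fewer transcripts per cell and fewer expressing cells cannot be told apart.

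Of the 240 genes, 186 passed the filter on low counts and were tested. Among the 54 that were not, 7 had no count in any library and none exceeded 16 counts in any library. edgeR's quasi-likelihood test called 20 of the 186 lower in si-N6AMT1 (10.8%) and 3 higher (1.61%) at an FDR under 0.05. Over all 17320 tested genes, 11.5% were called lower and 9.78% higher. The share called lower was therefore near the background, and the share called higher was below it. Fewer genes were called without si-N6AMT1 replicate 3 (12 lower) and without si-CN replicate 3 (13 lower), and DESeq2 without a filter on expression called 7 lower and 1 higher.

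Log2 fold changes of the 186 tested genes ran from -0.82 for ZNF709 to 0.66 for ZNF233, both with few counts and neither called. The median was -0.06, and 114 of the 186 genes (61.3%) were below 0, compared with 49.1% of all tested genes. The 199 tested ZNF genes of other chromosomes had a median of -0.03, the 810 tested other protein-coding genes of chromosome 19 a median of 0.05, and all tested genes a median of 0.0039. In 39 of the 186 genes (21.0%) every si-N6AMT1 library was below every si-CN library, and in 18 (9.68%) every one was above. The same held for 18.0% and 16.8% of all tested genes.

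**Figure D1:**
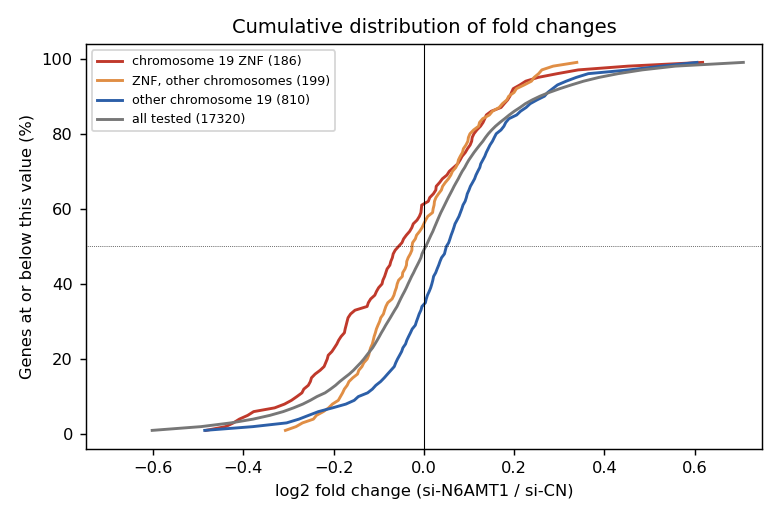
Cumulative share of tested genes (vertical axis, %) at or below each log2 fold change of si-N6AMT1 against si-CN (horizontal axis), with 1 line for each list. The line of the chromosome 19 ZNF genes crosses 50% at -0.06, left of the ZNF genes of other chromosomes (-0.03), and the other chromosome 19 genes cross at 0.05.

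The changes were small. Called genes fell by 0.17 to 0.52 on the log2 scale, with a median fall of 0.26, where the median over all genes called lower was -0.18. These medians were not matched for expression level, which sets how large a change must be to be called. None of the 23 called genes reached a fold change of 1.5, in this list and with this test. The median standard error of the 186 tested genes was 0.10, and in all 23 called genes the 2 groups of libraries did not overlap. Call and separation were read from the same libraries, so the separation is no independent support for the calls.

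Most calls lay in the more strongly expressed genes. The tested genes had a median of 7.38 CPM, compared with 17.5 CPM over all tested genes. Of the 75 genes with a mean of at least 10 CPM, 18 were called lower (24.0%) and 2 higher (2.67%). Over all tested genes of at least 10 CPM, 18.4% were called lower and 14.4% higher, and of the 121 ZNF genes of other chromosomes at that level 21 were called lower and 11 higher. Of the 111 genes under 10 CPM, 2 were called lower and 1 higher, and the lowest mean of a called gene was 5.59 CPM.

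**Figure D2:**
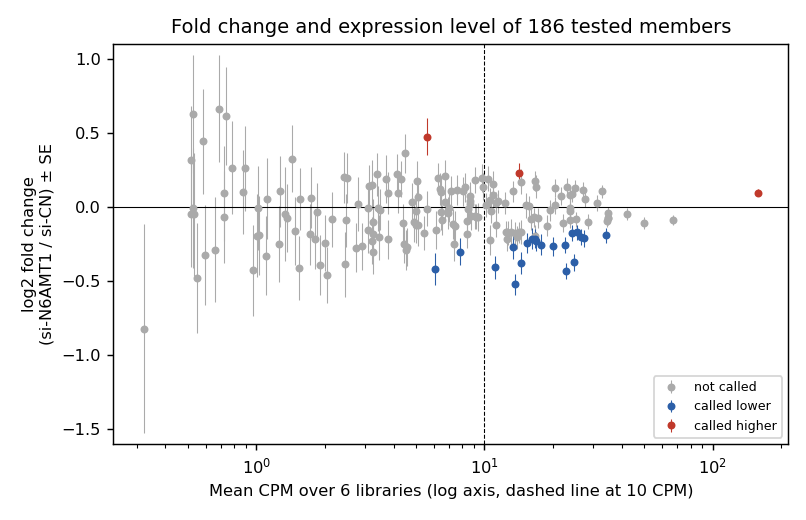
Log2 fold change of si-N6AMT1 against si-CN with its standard error (vertical axis) for the 186 tested chromosome 19 ZNF genes, by mean CPM over the 6 libraries (log axis). Of the 23 called genes 20 lie at or right of the dashed line at 10 CPM, and the wide bars lie at the low end.

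Positions on chromosome 19 are given in GRCh37. Genes were split into physical clusters wherever the next gene began more than 500 kb beyond the last, which gave 20 clusters, 8 of them with a single gene. The 9 clusters with at least 5 tested genes held 172 of the 186 tested genes. The most distal of them, cluster 20 from ZNF264 to ZNF446 (chr19:57702868-58992597), held 41 genes, of which 36 were tested, 7 were called lower (19.4%) and 0 higher, where 11.5% of all tested genes, and 18.4% of those of at least 10 CPM, were called lower. Its median log2 fold change was -0.16, the lowest of the 9 clusters, and 26 of its 36 tested genes were below 0.

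ZNF419 (chr19:57999079-58007466, plus strand), known as the source of a minor histocompatibility antigen, showed the largest fall of the called genes. It was measured at 10.6, 11.2 and 11.7 CPM in si-N6AMT1 and at 16.5, 16.0 and 15.7 CPM in si-CN. No si-N6AMT1 library came near the si-CN libraries, and the log2 fold change was -0.52 (SE 0.0714, FDR = 9.16e-06 by edgeR's quasi-likelihood test). ZNF211, in the same cluster (chr19:58141763-58155409, plus strand), had 18.6, 19.5 and 19.8 CPM in si-N6AMT1 and 27.2, 24.9 and 26.0 CPM in si-CN. Its groups did not overlap either, with a log2 fold change of -0.43 (SE 0.0569, FDR = 5.63e-06 by the same test in edgeR). ZNF552 (chr19:58315209-58326281, minus strand) had 7.16, 6.91 and 6.92 CPM in si-N6AMT1 and 8.51, 8.18 and 9.15 CPM in si-CN, with a log2 fold change of -0.30 (SE 0.0924, edgeR FDR = 0.0221). Its groups were closer, and it lost its call without si-N6AMT1 replicate 2 (FDR = 0.0653), without si-N6AMT1 replicate 3 (FDR = 0.0640) and without si-CN replicate 3 (FDR = 0.113). ZNF304, which is known to recruit KAP1 and its partners to DNA, had a log2 fold change of -0.22 (SE 0.0701, edgeR FDR = 0.0314), and its call was lost when any of 4 libraries was left out, with edgeR FDRs of 0.119 without si-N6AMT1 replicate 1, 0.0660 without si-N6AMT1 replicate 3, 0.148 without si-CN replicate 2 and 0.110 without si-CN replicate 3. The other called genes of the cluster, ZNF264, ZNF586 and ZNF550, had log2 fold changes of -0.20, -0.21 and -0.17. Each of these 3 lost its call in at least 2 of the 6 fits that left out 1 library.

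**Figure D3:**
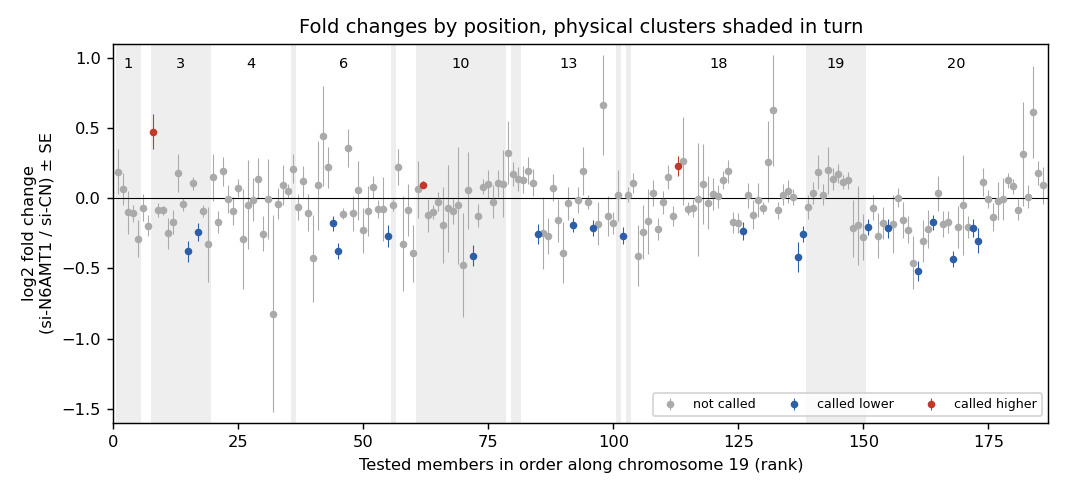
Log2 fold change of si-N6AMT1 against si-CN with its standard error (vertical axis) for the 186 tested genes in their order along chromosome 19 (rank, horizontal axis), with clusters in turn white and grey and the 9 larger ones numbered. Genes called lower appear in clusters 3, 6, 10, 13, 18 and 20 and in ZNF114 alone, and 7 of the 20 lie in cluster 20.

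Cluster 6 (chr19:19779605-24312770), where the ZNF91 family lies, had 37 genes, of which 19 were tested and 3 were called lower (15.8%). The share called lower was 11.5% over all tested genes and 18.4% over those of at least 10 CPM. ZNF714 had 22.9, 19.98 and 21.5 CPM in si-N6AMT1 and 27.4, 28.6 and 27.3 CPM in si-CN, a log2 fold change of -0.37 (SE 0.0568, FDR = 3.60e-05 by edgeR's quasi-likelihood test). Its groups stood well apart. ZNF254 had 10.8, 13.3 and 12.3 CPM in si-N6AMT1 and 14.007, 14.8 and 15.1 CPM in si-CN, with a log2 fold change of -0.27 (SE 0.0791, edgeR FDR = 0.0163). Here the highest si-N6AMT1 library lay just under the lowest si-CN library, and the call was lost without si-N6AMT1 replicate 1 (edgeR FDR = 0.108) and without si-CN replicate 3 (edgeR FDR = 0.0747). ZNF430 had a log2 fold change of -0.18, the median log2 fold change of the cluster was -0.08, and the call of ZNF430 was lost in 4 of the 6 fits without 1 library.

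Cluster 13 (chr19:44029649-45004576) had 23 genes, of which 19 were tested, 3 were called lower (15.8%) and 0 higher. Its median was -0.12 on the log2 scale, and over all tested genes 11.5% were called lower and 9.78% higher. ZNF224, a repressor of the aldolase A gene, had 30.5, 32.9 and 32.3 CPM in si-N6AMT1 and 35.1, 35.6 and 38.5 CPM in si-CN. The groups did not overlap, and its log2 fold change was -0.19 (SE 0.0484, FDR = 0.00561 by edgeR's quasi-likelihood test). Without si-CN replicate 3, the highest of the 6 libraries, it was -0.15 with an edgeR FDR of 0.0635. Its neighbours ZNF45 (log2 fold change -0.25) and ZNF227 (-0.21) were also called lower, and both lost the call without si-N6AMT1 replicate 3 (edgeR FDR = 0.109 and 0.0679), as ZNF45 did without si-CN replicate 2 (edgeR FDR = 0.0511).

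In cluster 3 (chr19:8574562-9903856) 12 of 13 genes were tested, 2 were called lower (16.7%) and 1 higher (8.33%). These shares were 11.5% and 9.78% over all tested genes. ZNF426 had 12.3, 12.6 and 12.9 CPM in si-N6AMT1 and 18.1, 16.1 and 15.0 CPM in si-CN, and its log2 fold change was -0.38 (SE 0.0763, FDR = 0.000811 by edgeR's quasi-likelihood test). The si-CN libraries were the more spread group for ZNF426, yet each exceeded all 3 si-N6AMT1 libraries. ZNF561 had a log2 fold change of -0.24 and lost its call without si-CN replicate 1, at an edgeR FDR of 0.0514. ZNF420 (also Apak), in cluster 10 (chr19:36673178-38307940), had 9.59, 9.40 and 9.80 CPM in si-N6AMT1 and 12.2, 12.9 and 13.1 CPM in si-CN. The groups of ZNF420 were narrow and separate, with a log2 fold change of -0.41 (SE 0.0773, edgeR FDR = 0.000437). ZNF114, which lies alone at chr19:48773338-48790865, had 17.8, 17.3 and 19.5 CPM in si-N6AMT1 and 23.1, 21.4 and 21.3 CPM in si-CN, with a log2 fold change of -0.27 (SE 0.0629, edgeR FDR = 0.00345).

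Cluster 18 (chr19:52074536-54083523) had 39 genes, of which 35 were tested, 3 called lower (8.57%) and 1 higher (2.86%), and its median log2 fold change was -0.01. Both shares were below those of all tested genes (11.5% and 9.78%). ZNF331, an imprinted gene, had 21.7, 19.8 and 20.1 CPM in si-N6AMT1 and 24.5, 24.5 and 24.7 CPM in si-CN, a log2 fold change of -0.26 (SE 0.0559, FDR = 0.00169 by edgeR's quasi-likelihood test). Its si-CN libraries were nearly equal, and all 3 si-N6AMT1 libraries lay below them. ZNF813 had 5.65, 5.34 and 4.53 CPM in si-N6AMT1 and 7.13, 6.81 and 6.79 CPM in si-CN, with a log2 fold change of -0.42 (SE 0.109, edgeR FDR = 0.00724). The groups did not overlap, and without si-N6AMT1 replicate 3, its lowest library, the log2 fold change was -0.33 and the edgeR FDR 0.0537. ZNF468 had a log2 fold change of -0.23 and kept its call with each library left out in turn.

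Only 3 chromosome 19 ZNF genes were called higher by edgeR. ZNF414 (chr19:8574562-8579051, minus strand) had 6.00, 7.59 and 5.90 CPM in si-N6AMT1 and 5.20, 4.22 and 4.62 CPM in si-CN, a log2 fold change of 0.48 (SE 0.124, FDR = 0.00727 by edgeR's quasi-likelihood test). Without its highest library, si-N6AMT1 replicate 2, ZNF414 had a log2 fold change of 0.35 and an edgeR FDR of 0.0684. ZNF616, in cluster 18, had 15.1, 15.1 and 15.5 CPM in si-N6AMT1 and 13.1, 12.3 and 13.5 CPM in si-CN, a log2 fold change of 0.23 (SE 0.0695, edgeR FDR = 0.0199), and lost its call without si-N6AMT1 replicate 3 (edgeR FDR = 0.0682) and without si-CN replicate 2 (edgeR FDR = 0.0967). ZNF146 (also OZF), whose protein is nearly all zinc fingers, had 164, 162 and 163 CPM in si-N6AMT1 and 154, 152 and 151 CPM in si-CN. The libraries of each ZNF146 group lay within a few CPM of each other, so a log2 fold change of 0.10 was called (SE 0.0245, edgeR FDR = 0.00548).

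**Figure D4:**
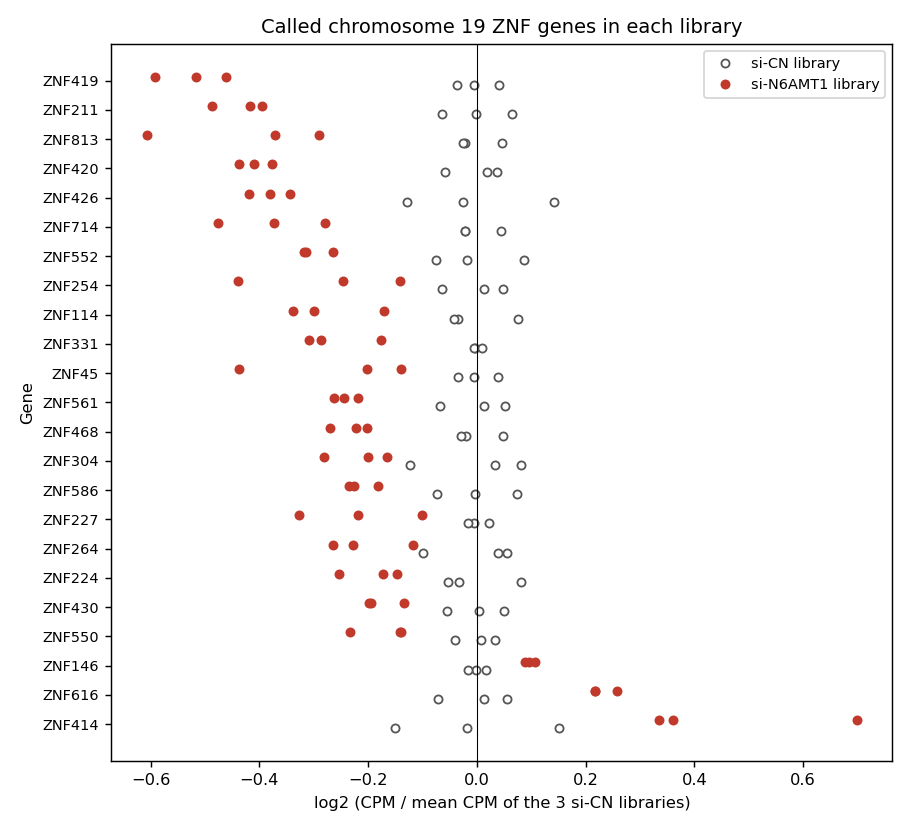
Log2 ratio of each library's CPM to the mean CPM of the 3 si-CN libraries (horizontal axis) for the 23 called genes, ordered by fold change, with open points for si-CN and filled points for si-N6AMT1. The 20 genes called lower have all filled points left of all open points, from ZNF419 at -0.52 to ZNF550 at -0.17, and ZNF146, ZNF616 and ZNF414 have them to the right.

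Compared per length, most of the 240 genes were weakly expressed, with a median of 2.81 TPM in si-CN and 35 genes at 10 TPM or more. ZNF146 was the highest at 101 TPM in si-CN. It was followed by ZNF317 at 37.7 ± 0.238 TPM, ZNF580 at 30.7 ± 2.74 TPM, ZNF787 at 29.7 ± 1.15 TPM and ZNF581 at 29.0 ± 1.75 TPM (SD, n = 3 each). ZNF580, ZNF787 and ZNF581 did not differ beyond their spread. None of these 4 was called, with log2 fold changes of -0.09 for ZNF317 (edgeR FDR = 0.0800), 0.14 for ZNF580 (edgeR FDR = 0.222), 0.12 for ZNF787 (edgeR FDR = 0.122) and 0.17 for ZNF581 (edgeR FDR = 0.0708). ZNF581 had the smallest FDR of cluster 19 (chr19:55987984-57183151), where 12 of 16 genes were tested, 0 were called, 4 were below 0, and the median log2 fold change was 0.08. At an unadjusted p under 0.05, edgeR found 3 of these 12 genes higher. The lead genes of the 2 other clusters without a call were ZNF77 in cluster 1 (log2 fold change -0.29, edgeR FDR = 0.132) and ZNF627 in cluster 4 (-0.17, edgeR FDR = 0.128), the only tested gene in each with an unadjusted p under 0.05. DESeq2 and limma-voom also called 0 genes in clusters 1, 4 and 19.

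Of 7 genes known, in human or mouse, for binding transposable elements or imprinted genes, 6 were tested and none of the 6 was called by edgeR. ZNF91 and ZNF611, known for binding SVA elements, had 11.1, 11.0 and 11.6 CPM and 10.3, 11.4 and 11.4 CPM in si-N6AMT1, against 10.6, 10.7 and 10.6 CPM and 9.78, 10.1 and 9.10 CPM in si-CN. Their libraries did not overlap between groups and were higher in si-N6AMT1, but the log2 fold changes of 0.08 for ZNF91 (SE 0.0771, edgeR FDR = 0.529) and 0.19 for ZNF611 (SE 0.0833, edgeR FDR = 0.111) did not pass the test. ZNF765 and ZNF649, known for binding L1 elements, had log2 fold changes of 0.05 (SE 0.0816) and -0.24 (SE 0.191), and ZNF808, known for MER11 elements, had 0.03 (SE 0.116). ZNF568, whose mouse counterpart is known for repressing a placental transcript of IGF2, had 0.06 (SE 0.273). ZNF93, another L1 binder, had at most 6 counts in a library and was not tested.

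The called genes were also counted by the presence of a KRAB box. A box was found in 177 of the 240 proteins with a strict pattern and in 199 (82.9%) with a wider one, compared with 41.9% of the ZNF proteins of other chromosomes with the wider one. The median number of C2H2 fingers was 12, the highest 36 in ZNF208, and the median on other chromosomes 9. With the strict pattern, 16 of 136 tested genes with a box were called lower (11.8%, near the 11.5% of all tested genes) and 1 higher, and their median change was -0.08 on the log2 scale. Of 50 tested genes without one, 4 were called lower (8.0%) and 2 higher, and the median was 0.03. With the wider pattern, chosen after the data had been seen, 19 of 153 with a box were called lower (12.4%) and 1 higher. Of 33 without a box by that pattern, 1 was called lower (3.03%) and 2 higher (6.06%). Over all tested genes these shares were 11.5% and 9.78%. By that pattern the median GC content of the transcripts was 42.4% with a box and 60.2% without one. The part of base composition in these counts was not tested. Of the genes called lower only ZNF714 had no box by the wider pattern, and of the genes called higher ZNF146 and ZNF414 had none. On other chromosomes, 5 of 83 tested ZNF genes with a box by the wider pattern were called lower and 4 higher, and 16 of 116 without one were called lower and 7 higher. These counts are a description, and the difference between them was not tested. Genes with at most 12 fingers had 12 of 95 called lower and those with more had 8 of 91, and the correlation between number of fingers and log2 fold change across the 186 genes was 0.02.

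Base composition moved with these values. The GC content of the transcripts had a median of 42.6% in the tested chromosome 19 ZNF genes, 45.9% in ZNF genes of other chromosomes, 60.8% in other chromosome 19 genes and 48.1% in all tested genes. Across genes, the correlation of GC content with log2 fold change was 0.24 over the 186 genes and 0.12 over 17239 genes, all measured in the same 6 libraries. Of 2879 other protein-coding genes within the middle GC range of the chromosome 19 ZNF genes, 20.8% were called lower and 9.86% higher, and their median change was -0.03 on the log2 scale. With a correction for GC content within each library, added after the data had been seen, the median of the chromosome 19 ZNF genes moved from -0.06 to -0.03, that of ZNF genes of other chromosomes from -0.03 to -0.0088 and that of other chromosome 19 genes from 0.05 to 0.0058. Of the calls themselves, 22 of the 23 were retained, and 5 genes were called higher in place of 3. The part of GC content in the result was not tested.

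**Figure D5:**
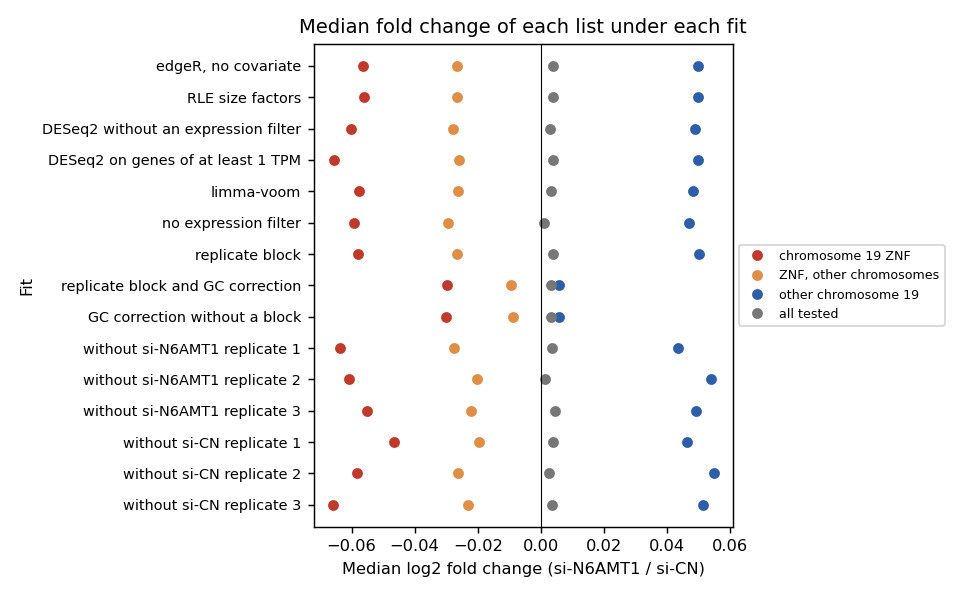
Median log2 fold change of si-N6AMT1 against si-CN (horizontal axis) of 4 gene lists under each fit (vertical axis), over genes that passed the filter on low counts where the fit tested them. The chromosome 19 ZNF genes lie left of 0 in every fit drawn, near -0.06 in most and at -0.03 in both fits with GC correction, where the other chromosome 19 genes move from 0.05 to 0.0058.

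The 3′ UTRs were searched for the 7-base words TTCACAT and TCACATA on the transcript strand, and for the 8-base word TTCACATA that holds both. An earlier analysis of these same fold changes had picked out these words over all genes, so their link to lower values here is no independent support. Of 237 chromosome 19 ZNF genes with a 3′ UTR of at least 50 bases, 79 (33.3%) held a 7-base word and 14 (5.91%) the 8-base word, compared with 20.5% and 4.24% of 19150 protein-coding genes. Of the 65 tested genes with a 7-base word, 8 were called lower and 0 higher, and the median of the 65 was -0.08 on the log2 scale. Of the 120 without, 12 were called lower and 3 higher, with a median of -0.04. Of the 12 tested genes with the 8-base word, 3 were called lower, and their median was -0.20. Over all tested protein-coding genes with a 7-base word, 28.4% were called lower and 6.02% higher. For the 617 tested protein-coding genes with the 8-base word, these shares were 41.2% and 4.05%, and the median was -0.10. The share called lower among the 12 chromosome 19 ZNF genes with that word was below that of all such genes, although their median was lower. These shares were not matched for expression level, so they are not compared further. The median level was 6.79 CPM in the 12 genes and 37.3 CPM in the 617. With a 7-base word it was 8.38 CPM in the chromosome 19 ZNF genes and 34.6 CPM in all protein-coding genes.

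A 30-base window of the 3′ UTR is printed for each of the 8 genes called lower that held a word. Windows run 5′ to 3′ on the gene's strand. These 8 were picked for holding a word, and the other 12 genes called lower held none. Of the tested chromosome 19 ZNF genes, 12.3% with a 7-base word and 10.0% without were called lower. Capitals mark the word, and the sequences come from the GRCh37 genome. ZNF426 held 4 words, ZNF561 held 3, and ZNF430, ZNF468 and ZNF714 held 2 each, of which 1 is shown.
ZNF331 (chr19:54081708-54081737, plus strand): agagagatacgTTCACATAattttattaca
ZNF561 (chr19:9718521-9718550, minus strand): aaaaccctattTTCACATAcagtcacattg
ZNF714 (chr19:21304334-21304363, plus strand): agactttttgaTTCACATAgagttaaatat
ZNF419 (chr19:58006223-58006252, plus strand): ttttccatttcTTCACATtactgacagttt
ZNF254 (chr19:24312335-24312364, plus strand): ttattcttattTTCACATttaaatttattt
ZNF426 (chr19:9638304-9638333, minus strand): aagccttaataTTCACATgcaaagccacac
ZNF430 (chr19:21241567-21241596, plus strand): attaatatctaTTCACATcttaccactgga
ZNF468 (chr19:53343730-53343759, minus strand): acataagaaaaTTCACATtgaagagaaacc

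ZNF331, ZNF561 and ZNF714 held the 8-base word and had log2 fold changes of -0.26, -0.24 and -0.37. ZNF211 and ZNF420, among the larger falls, held no word, and neither did ZNF146, ZNF616 or ZNF414.

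Neighbouring ZNF genes can share reads. Of the 23 called genes 8 overlapped another tested gene on the opposite strand and 4 on the same strand, and the strand setting of the counting is not given in the sources used here. ZNF586 and ZNF552 overlap each other on opposite strands and were both called lower, so their counts are not separate measurements if strand was not used. ZNF420 overlaps ZNF585A, which had a log2 fold change of 0.02 at 17.1 CPM, and ZNF468 overlaps ZNF28 on the same strand, with a log2 fold change of -0.17 (edgeR FDR = 0.0940). Recent duplicates of this family have long similar stretches, and the division of reads between them was estimated, so the value of any 1 member is less certain than its standard error.

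The ZNF genes of other chromosomes had 21 of 199 called lower (10.6%) and 11 higher (5.53%). Among those called, the largest changes were ZNF483 on chromosome 9 (log2 fold change -0.33, SE 0.0884, edgeR FDR = 0.00835) and ZNF695 on chromosome 1 (-0.31, SE 0.0728, edgeR FDR = 0.00355) among falls, and ZNF267 on chromosome 16 (0.26, SE 0.0527, edgeR FDR = 0.000709) and ZNF341 on chromosome 20 (0.25, SE 0.0786, edgeR FDR = 0.0232) among rises. ZNF341, an activator of STAT3 transcription, lost its call with GC correction (edgeR FDR = 0.0576) and without si-N6AMT1 replicate 1 (0.126), si-CN replicate 1 (0.0871) or si-CN replicate 3 (0.0702), and ZNF483 without si-N6AMT1 replicate 2 (edgeR FDR = 0.0677).

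The partners through which KRAB proteins repress were read from a list of 26 genes, all tested, of which 8 were called lower and 2 higher, and the median of the list was 0.0011 on the log2 scale. All 26 had means of at least 10 CPM, and of all tested genes at that level 18.4% were called lower and 14.4% higher, compared with 30.8% and 7.69% of the 26. The median level was 74.6 CPM in the 26 and 46.6 CPM in all tested genes of at least 10 CPM, so these shares were not fully matched for level. TRIM28, which binds the KRAB box itself, had 221, 216 and 223 CPM in si-N6AMT1 and 213, 216 and 215 CPM in si-CN and was not called (log2 fold change 0.03, SE 0.0233, edgeR FDR = 0.332). UHRF1, which brings DNMT1 to newly copied DNA, had 59.1, 60.5 and 57.7 CPM in si-N6AMT1 and 75.2, 75.5 and 74.4 CPM in si-CN, the largest change of the list (log2 fold change -0.34, SE 0.0333, edgeR FDR = 6.97e-08). The maintenance methyltransferase DNMT1 (-0.12, edgeR FDR = 0.00115), the NuRD subunit CHD3 (-0.20, edgeR FDR = 4.32e-06) and the HP1 protein CBX3 (-0.18, edgeR FDR = 0.000165) were lower in all 3 si-N6AMT1 libraries than in any si-CN library.

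SETDB1, the H3K9 methyltransferase of the complex, had 53.1, 50.006 and 47.3 CPM in si-N6AMT1 and 44.5, 48.7 and 43.8 CPM in si-CN. Its groups overlapped, and the call (log2 fold change 0.14, edgeR FDR = 0.0425) was lost in 4 of the 6 fits without 1 library, with edgeR FDRs of 0.209 without si-N6AMT1 replicate 1, 0.0865 without si-N6AMT1 replicate 2, 0.128 without si-CN replicate 1 and 0.192 without si-CN replicate 3. RESF1, a partner of SETDB1, was higher at a log2 fold change of 0.20 (edgeR FDR = 0.00186). ATF7IP (-0.10), HDAC1 (-0.08), ATRX (-0.09) and TRIM33 (-0.09) were called lower, with overlapping groups for ATRX, and each lost its call in 3 or 4 of the fits without 1 library. With GC correction the list had 5 genes lower and 6 higher, in place of 8 and 2.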

How the data were processed

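RNA from 3 si-N6AMT1 and 3 si-CN cultures was sequenced as read pairs from stranded mRNA libraries. The authors trimmed reads with Trim Galore, assigned them to hg19 GENCODE transcripts with kallisto (v0.46.0) and added up the transcripts of each gene, and the authors deposited these estimated counts (expected counts) as whole numbers without normalization. The strand option is not given in the sources used here. Where reads fit several similar ZNF genes, kallisto divides them by an estimate.

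Of 62438 gene identifiers, 62149 matched GENCODE release 44 on GRCh37, which gave symbols, positions, transcripts and proteins. edgeR v4.0.16 (R v4.3.3) with TMM scaling, filterByExpr at a minimum count of 10 and no covariate was fitted on the whole table, and p-values were adjusted over all 17320 tested genes after Benjamini and Hochberg (FDR, called under 0.05). CPM uses TMM-scaled totals, and TPM was computed here from the counts and the length of 1 transcript per gene. A C2H2 finger was cysteine, 2 to 4 residues, cysteine, 12 residues, histidine, 3 to 5 residues, histidine. A RefSeq protein table had been planned for this, and GENCODE translations were used instead. The strict KRAB pattern was phenylalanine, serine or threonine, 2 residues, glutamate and tryptophan, before the first finger. Alternatives were DESeq2 v1.42.0, limma-voom (limma v3.58.1), other scalings and filters, a replicate block, a loess correction for GC content (span 0.3) and leaving out each library.

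Genes were named by rule: the target, called members with the largest falls and rises and without overlap between groups, the most expressed members, the lead gene of each cluster with at least 5 tested members, known binders of transposable elements, the largest changes among other ZNF genes, and called KRAB partners. Members of clusters beyond that rule were named after their values were seen. The members and lists were chosen with earlier results of these data known. Within groups, pairs of libraries differed by more than sampling noise (chi-square per degree of freedom 1.35 to 1.69), so each was counted once. The labels do not say whether the 3 cultures per group were independent, so p-values measure the spread between these libraries. Scripts were tested on simulated data. Other files of the study were not analysed here. A planned marker gene is not reported here.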

Additional observations from a re-analysis of the deposited data

How the results depend on the processing

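In the 14 other fits no called value named here changed direction. Of the 23 called chromosome 19 ZNF genes, 8 kept their call in all 14 (ZNF419, ZNF211, ZNF426, ZNF714, ZNF420, ZNF114, ZNF331 and ZNF146), and 9 kept it whichever library was left out. DESeq2 gave fewer calls. Without a filter on expression it called 7 chromosome 19 ZNF genes lower and 1 higher, 8 ZNF genes of other chromosomes lower and 3 higher, 1136 of all genes lower and 796 higher, and 4 KRAB partners lower and 1 higher. On genes of at least 1 TPM it called 11 chromosome 19 ZNF genes, 9 of them lower, with ZNF146 and ZNF414 higher. In that fit 11 other ZNF genes were lower and 3 higher, and 4 partners lower and 1 higher. Of all genes, 1239 were lower and 930 higher. DESeq2 gave no adjusted p for 108 and 26 of the members in these fits. limma-voom called 1 partner higher. GC correction without a block called 5 members higher, with median log2 fold changes of -0.0302 for members and -0.0088 for other ZNF genes, and 5 partners lower and 6 higher.

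Same-numbered libraries did not deviate together (correlations -0.038, -0.042 and 0.010). Whether cultures of the same number were prepared in pairs cannot be told from these values. With the replicate number as a block, 24 members were called, 21 lower and 3 higher, including all 23. With the replicate block and GC correction, 5 members were called higher, medians were -0.0298 for members and -0.0095 for other ZNF genes, and 5 partners were lower and 4 higher.

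With each library left out in turn, members called lower ran from 12 to 21 and higher from 2 to 4, and their median from -0.0659 to -0.0467. For ZNF genes of other chromosomes, 14 to 19 were lower and 6 to 9 higher, with a median from -0.0275 to -0.0197. Partners called lower ran from 4 to 8 and higher from 1 to 2, and N6AMT1 from -1.18 to -1.04. Of 111 tested members under 10 CPM 3 were called.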

Other observations

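Relatives of the chromosome 19 ZNF genes with other kinds of symbol were read from the same fit. 6 genes with a letter after the number were listed and tested, and edgeR called 0 of them, with 0 at an unadjusted p under 0.05 and a median of -0.01 on the log2 scale. Of 15 chromosome 19 genes with ZFP, ZSCAN, ZKSCAN, ZIM or ZIK symbols, 6 were tested and edgeR called 0, with 0 at an unadjusted p under 0.05 and a median of -0.09. DESeq2 and limma-voom also called 0 in both lists. With the lettered genes added, 20 of 192 tested genes were called lower and 3 higher.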
